A study of Mus musculus with 12 samples.

Results

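The transcripts of 6 genes of the ubiquitin and proteasome system were followed in mature mouse oocytes with and without Dicer: the ligases Wwp1, Ube3a, Trim59, Rnf112 and Unkl, and the proteasome activator Psme3. Each gene was taken from the scanner files by its RefSeq mRNA accession and had 1 probe, so the set held 6 of the 33012 gene probes of the array. The members were chosen by their gene function among probes whose signals in the 2 groups on these same arrays were already known. Their differences between the groups are therefore a description, and no p-value is given for them. Quantile normalization gives every array the same distribution of signals. After it, Unkl and Ube3a were higher in Dicer-knockout oocytes, and Wwp1, Trim59 and Rnf112 were lower. Psme3 differed by less than its spread between arrays. The lower values depended on the scaling. With control spots or the authors' deposited table, Wwp1 and Trim59 differed by less than the standard error and Rnf112 was higher in the knockout.

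The labels gave 12 arrays of mature oocytes, 6 titled Dicer knockout and 6 titled Dicer wild type, each hybridized with digoxigenin-labelled cRNA amplified from total RNA. The labels call the material a single cell. They do not state how many oocytes went into an array, the Dicer allele, any Cre driver, the strain or the females' age. The arrays were treated as separate samples, so the spread between them may be technical, and a lower signal cannot be told apart between fewer cells and less RNA per cell. No probe could be paired with Dicer1, so the knockout itself was not checked. Of 35 oocyte marker genes listed, 5 had a named probe (Mos, Obox1, Obox2, Obox3 and Cphx1), and all 5 were above background on at least 5 of 6 arrays in each group. The zona pellucida genes and Gdf9 were not among the named probes. Of 25 cumulus and granulosa markers 1 was named, Sfrp4, detected on 1 of 6 knockout arrays and on 0 wild-type arrays. Of 15 blood and immune markers 1 was named, Hba-a1, detected on 1 knockout and 1 wild-type array, and 0 of 10 stromal markers were named.

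Ubiquitin is attached to proteins by a chain of activating, conjugating and ligating enzymes, and the ligase chooses the substrate. Ligases of the HECT type take ubiquitin onto a cysteine of their own before passing it on, whereas RING ligases hold the conjugating enzyme next to the substrate. Proteins tagged in this way are commonly degraded by the proteasome, whose core can also be opened by activators that need no ubiquitin. In the oocyte, which is nearly silent in transcription once grown, degradation of stored proteins by this system drives the exit from meiosis and part of the change from egg to embryo. Dicer is the enzyme that makes mature microRNAs and small interfering RNAs from longer double-stranded RNA, and the design set mRNA beside microRNA expression in the knockout.

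The tested probes were brighter on the knockout arrays, which touches every value below. Their median signal, over 6088 probes, ranged from 2736 to 6732 intensity units on knockout arrays. It ranged from 1069 to 2580 on wild-type arrays. The control spots overlapped between the groups. For hybridization controls the knockout arrays lay within the wild-type range, and in vitro transcription controls reached higher on wild-type arrays. Mean log2 signals of hybridization controls were 15.33 to 15.61 on knockout arrays and 15.10 to 15.77 on wild-type arrays. Those of in vitro transcription controls were 14.54 to 15.12 and 14.60 to 15.96 in the same order. Tested probes were those with a signal-over-noise score of at least 3, called above background here, on at least 6 of 12 arrays without regard to group. All 6 members passed this filter. Unkl passed it through the knockout arrays alone, and Psme3 exceeded background on every knockout array but on 3 of 6 arrays in the wild type. The other 4 members were above background on all 12 arrays. None of the members' 72 spots carried a flag that set it to missing.

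For 4 of the 6 members RefSeq start-site windows were at hand (build GRCm38.p6, 250 bases before to 50 after a start). The windows of Ube3a and Unkl are shown because these members were the higher ones in the knockout under every scaling tried, and that of Trim59 as a lower one for comparison. Capitals mark matches on either strand to 6 short motifs picked after these windows had been read. They were the GC box GGGCGG, the CCAAT box, the TATA box TATAAA, the E-box CACGTG and the strings GCATGCGC and AAGATGG. All are written 5′ to 3′ along the gene's strand.
Ube3a, chr7:59228500-59228799, plus strand: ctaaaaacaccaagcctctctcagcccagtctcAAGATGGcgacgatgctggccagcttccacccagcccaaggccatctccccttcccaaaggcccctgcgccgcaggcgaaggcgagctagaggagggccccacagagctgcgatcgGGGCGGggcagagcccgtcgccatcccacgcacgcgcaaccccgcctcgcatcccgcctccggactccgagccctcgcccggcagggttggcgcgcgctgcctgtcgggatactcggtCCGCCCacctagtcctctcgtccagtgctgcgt
Unkl, chr17:25188147-25188446, plus strand: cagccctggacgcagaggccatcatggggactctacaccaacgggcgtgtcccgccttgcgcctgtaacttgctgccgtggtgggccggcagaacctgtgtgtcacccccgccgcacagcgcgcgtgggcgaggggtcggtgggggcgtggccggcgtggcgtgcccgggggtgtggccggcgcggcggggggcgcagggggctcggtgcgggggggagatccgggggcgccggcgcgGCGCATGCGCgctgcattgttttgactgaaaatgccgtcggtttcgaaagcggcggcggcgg
Trim59, chr3:69044693-69044992, minus strand: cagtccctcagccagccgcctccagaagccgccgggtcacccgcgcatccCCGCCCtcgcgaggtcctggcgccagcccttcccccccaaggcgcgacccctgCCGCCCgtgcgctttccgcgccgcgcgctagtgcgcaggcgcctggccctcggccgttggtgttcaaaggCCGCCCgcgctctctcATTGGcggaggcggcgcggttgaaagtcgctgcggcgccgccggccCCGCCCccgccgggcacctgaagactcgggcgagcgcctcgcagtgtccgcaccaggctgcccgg
The Trim59 window held 4 GC boxes and 1 CCAAT match, and the Ube3a window 2 GC boxes and 1 AAGATGG match. The first of 3 Unkl windows held GCATGCGC on both strands, 2 matches that overlap just before the start. Of 32851 windows of this length, 35.7% held a GC box, 37.4% CCAAT, 13.6% TATAAA, 7.15% CACGTG, 2.71% GCATGCGC and 6.34% AAGATGG. The TATA box letters were in 0 of the 3 windows shown. The members' windows were rich in G and C, at 69% for Ube3a, 74% for Unkl, 76.7% for Trim59 and 62% for Psme3, against a median of 52.7% over all windows. CpG dinucleotides numbered 29, 41, 44 and 21 in the same order, against a median of 7. The Psme3 window held 1 CACGTG and 1 CCAAT match. These counts describe the letters only.

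Among the HECT ligases, Wwp1 belongs to the Nedd4 family, whose WW domains bind proline-rich stretches of their substrates. Its signal as deposited was 11993 at the lowest, 22986 at the median and 39197 at the highest on the knockout arrays, and 18691, 20919 and 53542 on the wild-type arrays. The 2 groups thus overlapped broadly before any scaling, although the tested probes were brighter on the knockout arrays. After quantile normalization the log2 signal of Wwp1 ran from 12.83 through a median of 14.06 to 14.67 in knockout oocytes and from 15.12 through 15.62 to 16.31 in wild-type oocytes. All 6 knockout arrays lay below all 6 wild-type arrays, with means of 13.93 ± 0.74 and 15.65 ± 0.41 (SD, n = 6 each), a log2 difference of -1.72 ± 0.34 (SE) or 3.30-fold.

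Ube3a, the founding HECT ligase, is best known from the brain, where loss of the maternal copy causes Angelman syndrome in humans. Its deposited signal was 1390 at the lowest, 5535 at the median and 18040 at the highest in knockout oocytes, and 433, 824 and 1875 in wild-type oocytes. On 5 of 6 knockout arrays it exceeded every wild-type array, and only knockout replicate 2 lay within the wild-type range. After quantile normalization the log2 signals ran from 10.49 through 12.01 to 12.96 against 9.59 through 10.79 to 11.80. Again 5 of 6 knockout arrays stood above all wild-type arrays, though knockout replicate 4, at 11.81, barely passed wild-type replicate 4, at 11.80. The means were 11.93 ± 0.82 and 10.65 ± 0.84 (SD, n = 6 each), a log2 difference of 1.29 ± 0.45 (SE) or 2.44-fold. Its call was lost when any of 6 single arrays was left out, namely knockout replicate 1, 3 or 5 or wild-type replicate 1, 5 or 6, with log2 differences of 1.06 to 1.27. Without knockout replicate 2, the array with the fewest probes above background in its group (7361) and the lowest median signal (2736), the difference was 1.58.

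Among the RING proteins, Trim59 carries the RING, B-box and coiled-coil arrangement of the TRIM family and a membrane-spanning segment. Its deposited signal was 1973, 5037 and 7310 at the lowest, median and highest in knockout oocytes, and 3332, 3968 and 7186 in wild-type oocytes, so that the wild-type arrays lay within the range of the knockout arrays. After quantile normalization the order changed to 10.71, 11.64 and 12.13 against 12.08, 13.29 and 13.65 on the log2 scale. On 5 of 6 knockout arrays Trim59 then stood below every wild-type array, and knockout replicate 4 overlapped wild-type replicate 2 by a narrow margin (12.13 against 12.08). The means were 11.53 ± 0.52 and 13.12 ± 0.55 (SD, n = 6 each), a log2 difference of -1.60 ± 0.31 (SE) or 3.02-fold.

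Rnf112 joins a RING finger to a GTPase domain of the dynamin kind and is mostly studied in the nervous system. Its deposited signal was 3707, 4473 and 5171 in knockout oocytes and 1827, 2514 and 4324 in wild-type oocytes (lowest, median, highest), higher in the knockout by medians with overlapping groups. After quantile normalization it was the other way round, at 10.95, 11.68 and 12.43 against 12.07, 12.43 and 12.69 on the log2 scale. Knockout replicate 2 alone stood within the wild-type range, and the other 5 knockout arrays lay below it. The log2 difference was -0.81 ± 0.26 (SE), or 1.75-fold, between means of 11.60 ± 0.54 and 12.42 ± 0.24 (SD, n = 6 each). It was the smallest difference among the 5 members that passed the threshold.

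Unkl resembles Unkempt, a protein with CCCH zinc fingers that bind RNA and a RING finger at its end. Its deposited signal was 640, 2128 and 6636 at the lowest, median and highest in knockout oocytes, and 108, 218 and 329 in wild-type oocytes. Every knockout array was above background, with signal-over-noise scores of 4.74 to 45.7, and 0 of 6 wild-type arrays were, with scores of -2.61 to 2.32. The groups did not overlap before scaling, nor after quantile normalization, where the log2 signals were 9.20, 10.73 and 11.54 against 7.17, 7.79 and 8.99. After quantile normalization 28.3% of all tested probes had no overlap. That share was not computed before scaling, where tested probes were brighter on knockout arrays, so nothing is read from the separation of Unkl. The means were 10.41 ± 0.96 and 7.91 ± 0.68 (SD, n = 6 each), a log2 difference of 2.50 ± 0.45 (SE) or 5.65-fold. The wild-type values were below background, so this fold is nominal. The knockout mean was also set against the lowest signal that was above background on each wild-type array, or the probe's own where that was higher. That gave 5.54-fold, close to the 5.65-fold of the means. The floor came from any probe on the array and is not the detection limit of Unkl, so neither value is a lower bound. The floored value ran from 2.48-fold to 11.1-fold over 8 ways of scaling the arrays.

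Psme3, also called PA28 gamma or REG gamma, caps the proteasome core in the nucleus and promotes degradation without ubiquitin. Its deposited signal was 435, 1459 and 3607 in knockout oocytes and 112, 645 and 1893 in wild-type oocytes (lowest, median, highest). After quantile normalization the log2 signals were 8.66, 10.17 and 10.91 against 7.17, 10.14 and 11.10, with nearly equal medians and full overlap. The means were 10.06 ± 0.79 and 9.81 ± 1.36 (SD, n = 6 each), and the log2 difference of 0.25 ± 0.59 (SE) was smaller than either spread. Wild-type replicate 6, at 7.17 and below background, lay apart from the other 5 wild-type arrays at 9.92 to 11.10. Without it the difference was -0.28.

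**Figure D1:**
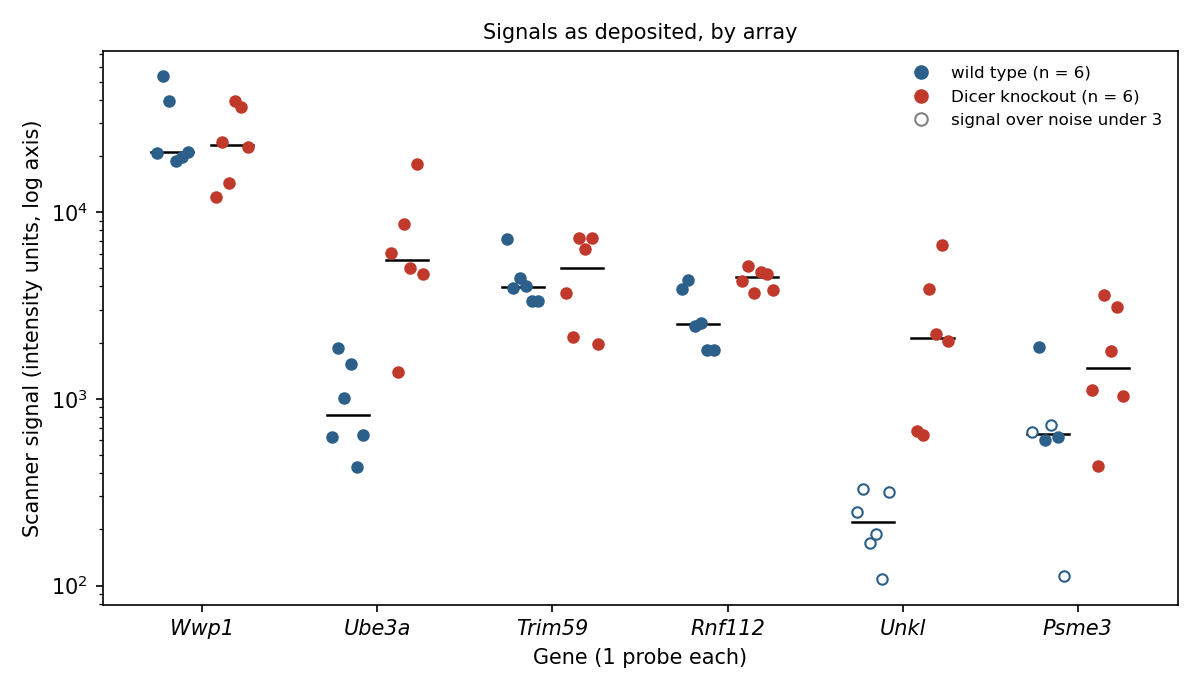
Scanner signal as deposited, in intensity units on a log axis, for the 6 genes on 6 wild-type (blue) and 6 knockout (red) arrays. Each point is 1 array, open points had a signal-over-noise score under 3, and black lines are medians. Of the 6 genes, Unkl is the one whose groups do not overlap. For Ube3a 5 of 6 knockout arrays lie above all wild-type arrays, and Wwp1 and Trim59 overlap broadly. Tested probes as a whole were brighter on the knockout arrays, and their share without overlap was not computed for these signals.

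**Figure D2:**
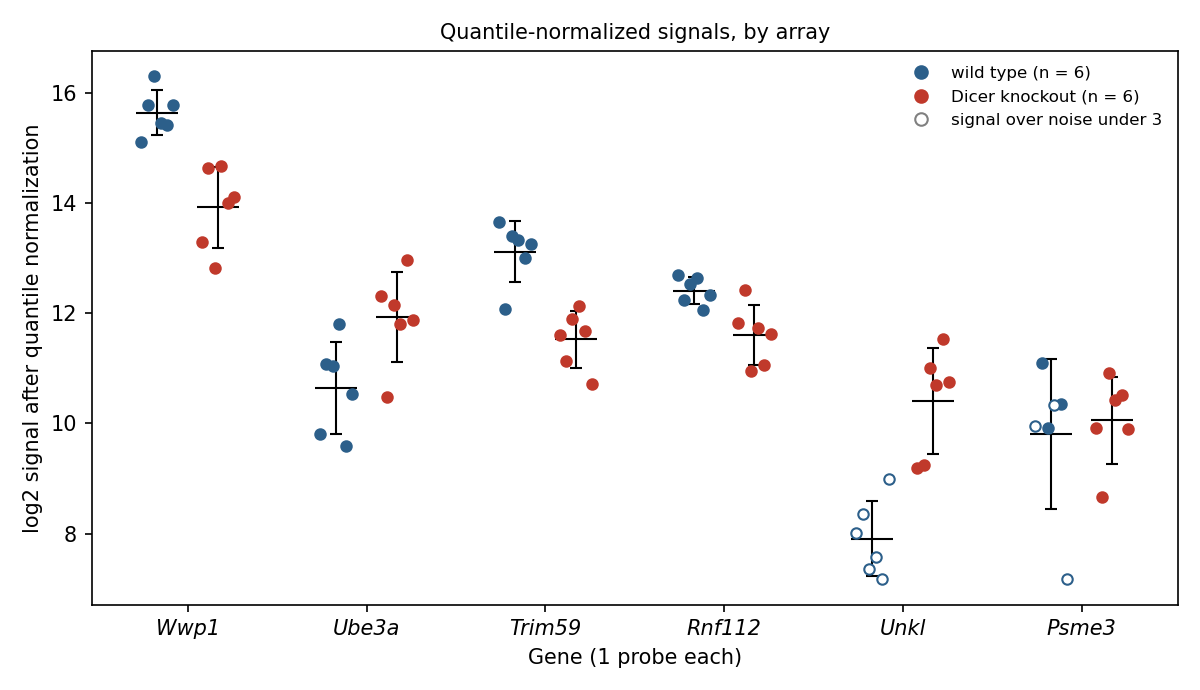
log2 signal after quantile normalization for the same genes and arrays, with black bars for the mean ± SD of 6 arrays. Wwp1 is lower and Unkl higher in the knockout without overlap, and the open points show that Unkl was not above background on any wild-type array.

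Of the 6 members, 5 passed an adjusted p of 0.05 in limma after quantile normalization, 2 higher (Ube3a and Unkl) and 3 lower (Wwp1, Trim59 and Rnf112). Of all 6088 tested probes 50.4% were called, 28.0% higher and 22.4% lower in the knockout. Because the members were chosen with this comparison known, nothing is read from their share. The groups did not overlap for 2 members, Wwp1 and Unkl, against 28.3% of all tested probes. The median log2 difference was -0.28 over the 6 members and 0.19 over the tested probes.

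Which members were called, and the sign of some, depended on how the arrays were scaled. The 8 scalings were quantile normalization of all gene probes or of the tested probes alone, cyclic loess, median centring, scaling to hybridization or to in vitro transcription control spots, the normalized signal written by the scanner software, and the authors' deposited table. Over these Unkl was between 1.60 and 3.50 and Ube3a between 1.06 and 2.97 on the log2 scale, and both passed the threshold each time. These counts describe genes chosen with these values known, and Unkl was tested only because of its knockout signals, so they lend no support to either difference. Wwp1 ran from -1.81 to 0.084 and was called lower in 5 of 8, and Trim59 ran from -1.62 to 0.30 and was called lower in 4 of 8. Rnf112 was called lower in 4 of 8 and higher in 3 of 8, between -0.86 and 1.03. Psme3 ran from -0.24 to 1.66 and was called higher in 2 of 8. The scalings also moved the median log2 difference of all tested probes, from -0.19 with median centring to 1.71 with in vitro transcription controls. The share of tested probes called higher and lower was 22.9% and 29.5% with median centring, 27.4% and 23.6% with cyclic loess, and 23.3% and 28.6% with quantile normalization of the tested probes alone. It was 34.2% and 8.39% with the scanner software's signal, 59.0% and 2.22% with hybridization controls, 69.1% and 1.02% with in vitro transcription controls, and 63.1% and 2.40% in the authors' deposited table.

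The members' differences were also taken relative to that median. Median centring and both control scalings shift every probe of an array alike, so these 3 give the same relative value by construction. Wwp1 stood between -1.91 and -1.58 from the median probe, and Trim59 between -1.78 and -1.33. Rnf112 was at -0.996 to -0.67, and Ube3a was at 1.05 to 1.33 (log2 difference minus the median of the tested probes). Psme3 was at -0.21 to 0.06, close to the median probe under all 8. It was above background on 3 of 6 wild-type arrays, so its place and rank rest in part on signals below background. Ranked among the tested probes by log2 difference, Wwp1 came between percentiles 6.41 and 8.80, Trim59 no higher than 12.7 and Rnf112 no higher than 30.9. Psme3 came between 44.1 and 51.9 and Ube3a between 76.2 and 81.4. No place is given for Unkl, whose wild-type signals were below background and allow only a nominal fold.

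**Figure D3:**
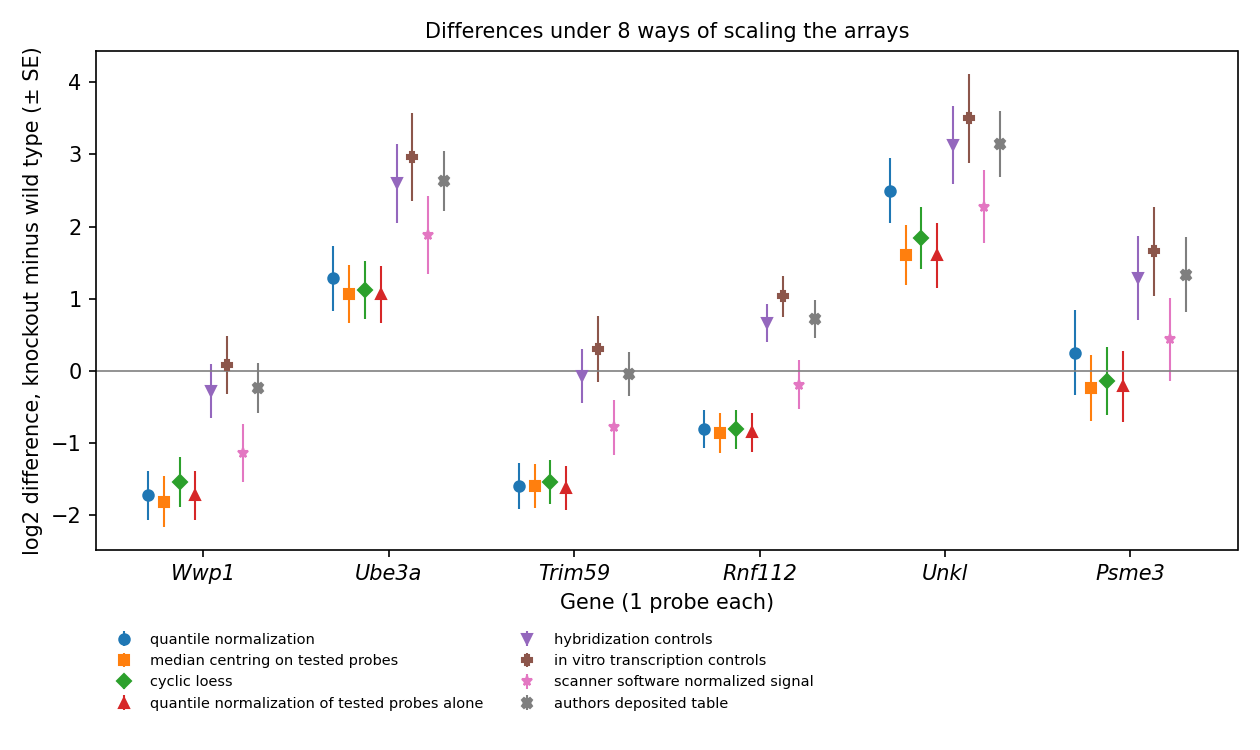
log2 difference (knockout minus wild type, ± SE from limma, 6 arrays per group) of each gene under 8 scalings of the arrays, 1 symbol per scaling. Unkl and Ube3a lie above 0 under all 8. With control spots or the authors' deposited table, Wwp1 and Trim59 lie near 0, Rnf112 lies above it and Psme3 reaches 1.29 to 1.66, while Psme3 falls below 0 with median centring, cyclic loess and quantile normalization of the tested probes alone.

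Ratios between members on the same array do not change with any single factor applied to that array, so they were taken from the deposited signals. Only their change between groups is read, since the levels of different probes are not comparable. For Unkl over Wwp1 the log2 ratio was -5.21, -3.79 and -1.88 at the lowest, median and highest in knockout oocytes, and -7.85, -6.99 and -6.05 in wild-type oocytes. For Unkl over Trim59 it was -2.46, -1.21 and 0.04 against -4.95, -4.57 and -3.41. For Ube3a over Trim59 it was -0.62, 0.48 and 1.30 against -3.53, -2.27 and -1.06. In these 3 pairs all 6 knockout arrays lay above all 6 wild-type arrays. The mean log2 ratio differed by 3.42 for Unkl over Wwp1, 3.20 for Unkl over Trim59 and 2.66 for Ube3a over Trim59. Unkl was below background on the wild-type arrays, so its ratios there rest on the noise floor.

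The groups overlapped in the other 12 of 15 pairs of members, and over all pairs of tested probes 24.0% did not overlap. For Ube3a over Wwp1, the 2 HECT ligases, the ratio was -4.10, -1.64 and -0.73 against -5.51, -5.05 and -3.61, and 5 of 6 knockout arrays lay above all wild-type arrays. The exception was knockout replicate 2. For Ube3a over Rnf112 5 of 6 and for Unkl over Rnf112 4 of 6 knockout arrays did so. For Wwp1 and Trim59, both lower after quantile normalization, the ratio had means of 2.43 ± 0.99 in knockout and 2.65 ± 0.77 in wild-type oocytes (log2 Wwp1 over Trim59, SD, n = 6 each), a difference smaller than either spread. The ratio of Ube3a to Unkl was 1.54 ± 0.81 against 2.08 ± 0.78, again with overlap.

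**Figure D4:**
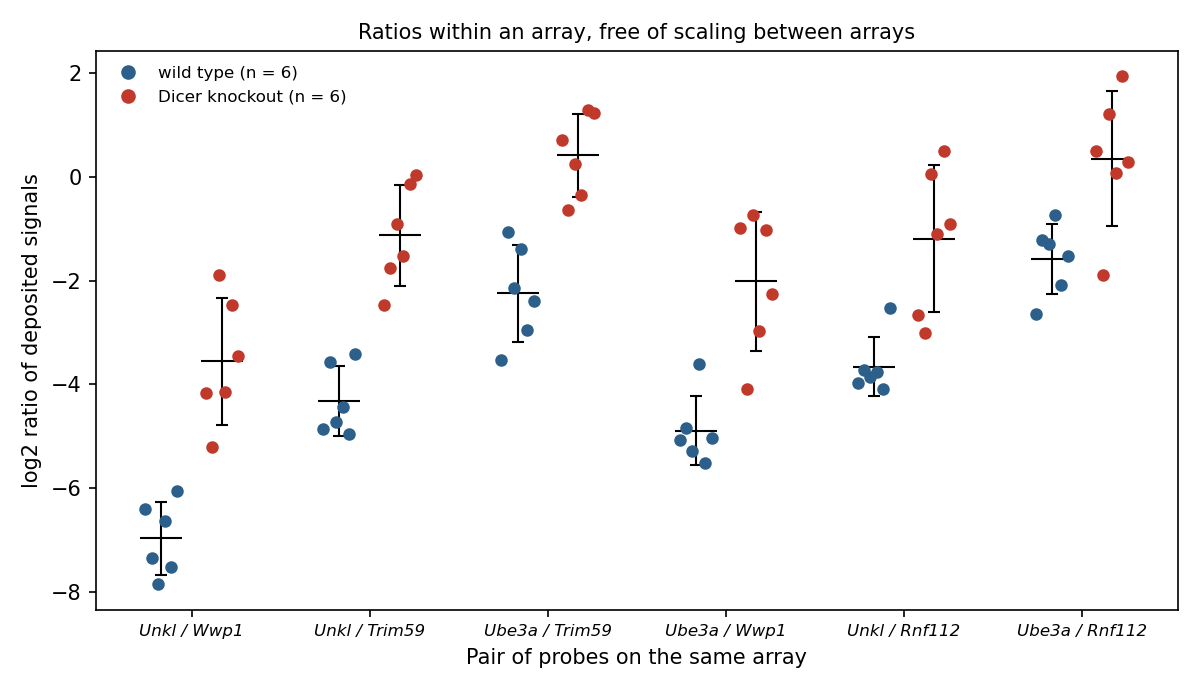
log2 ratio of deposited signals for 6 pairs of genes on the same array, wild type in blue and knockout in red, with the mean ± SD of 6 arrays. The groups do not overlap for Unkl over Wwp1, Unkl over Trim59 and Ube3a over Trim59, and 4 or 5 of 6 knockout arrays lie above all wild-type arrays in the other pairs drawn.

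The scanner software gives an error for each spot, which can be set beside the spread between arrays. For Wwp1 the error was 2.20% to 3.63% of the signal over the 12 arrays, and the signal varied 3.27-fold between knockout arrays and 2.86-fold between wild-type arrays. For Ube3a the median error was 2.96% on knockout arrays and 14.6% on the dimmer wild-type arrays. Its deposited signal varied more widely between knockout than between wild-type arrays. After quantile normalization the log2 SD was 0.82 and 0.84. Trim59 had median errors of 2.50% and 3.39% in the same order. As deposited, Rnf112 was the steadiest member in knockout oocytes, varying 1.40-fold between arrays with a median error of 4.75%. After quantile normalization it was not, with a knockout log2 SD of 0.54 against 0.52 for Trim59. For Unkl the median error was 7.23% on knockout arrays and reached the size of the signal itself on wild-type arrays, which is the noise floor. Psme3 had median errors of 10.3% and 30.1%.

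Named genes whose profile over the 12 arrays was most like each member were sought among the 67 other named genes tested, by Pearson's r of quantile-normalized log2 signal. The profiles hold the difference between the groups, and the arrays share their brightness, so these values are descriptions. Wwp1 was most like Rtl8c (0.96), a gene derived from a retrotransposon, and the kinase gene Wnk4 (0.95). Trim59 was most like Eola1 (0.86) and Akap7 (0.84), which encodes an anchor of protein kinase A, and Rnf112 was most like Tcp10b (0.89) and the steroid dehydrogenase family gene Hsd3b4 (0.89). Ube3a was most like Rraga (0.83), a GTPase of amino acid sensing, and Pdxp (0.77), the pyridoxal phosphatase. Pdxp was also the closest to Unkl (0.91), followed by the hormone gene Fgf21 (0.86). Psme3 had the weakest likenesses, to the Mediator subunit gene Med9 (0.61) and the cell polarity gene Llgl1 (0.57).

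Little of the rest of the ubiquitin system could be read, because few probes could be named. Of 504 genes in 7 lists of activating, conjugating and ligating enzymes, cullin complexes, deubiquitinases and proteasome parts, 10 had a named probe and 4 of these were not members. Of these 4, 1 was tested and 0 passed. It was Trim41, a RING ligase of the TRIM family, at log2 signals of 8.09 to 10.79 in knockout and 7.67 to 11.77 in wild-type oocytes, with a difference of -0.76 ± 0.79 (SE; adjusted p = 0.447 in limma). Rnf169, a RING protein of the DNA damage response, exceeded background on 3 of 6 arrays in the knockout and on 0 in the wild type. Its log2 signals overlapped, at 7.17 to 9.42 against 6.78 to 7.77, with 1 value missing. Mkrn3, a maternally imprinted RING gene, likewise exceeded background on 3 knockout arrays and 0 wild-type arrays. The log2 signals of Mkrn3 overlapped too, at 7.39 to 9.12 against 7.09 to 9.44. Over all gene probes, 7361 to 9598 were above background on knockout arrays and 5707 to 7102 on wild-type arrays. The deubiquitinase Otub1 was above background on 0 of 12 arrays.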

How the data were processed

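The arrays carried design version 1.0 and were read by AB1700 software version 1.1.1, per the file headers, which show 1 scan date. The deposited scanner files hold signals on a linear intensity scale, their errors, a normalized intensity and a signal-over-noise score. The authors' deposited table also holds intensity values, with medians of 257 to 260.4 in the knockout and 215 to 217 in the wild-type columns. The medians were thus nearly even within each group but not between the groups. The members' log2 differences in it were close to those of the signals before scaling, at 2.63 against 2.65 for Ube3a and -0.23 in both for Wwp1. The evening within each group thus left the difference between the groups nearly as it was. The method of scaling and centring itself stays unknown.

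After control spots were dropped and spots with a flag of 5000 or above made missing, the linear signals of 33012 gene probes were quantile-normalized and log2-transformed with no offset. Probes above background (signal over noise at least 3) on 6 or more of 12 arrays were fitted in limma 3.58.1 (R 4.3.3; lmFit, eBayes), two-sided, with Benjamini-Hochberg adjustment over 6088 probes and a threshold of 0.05. The fit was tested on simulated data. For leaving out arrays the set of tested probes was kept. Alternatives were other scalings, an offset of 50, other filters, keeping the spots that were set to missing, an unmoderated model and leaving out each array; the precision is limited by the number of arrays. Symbols came from the RefSeq gene table of GRCm38.p6, which named 317 probes, or 0.960%. Probe positions are left out because no build is named for the array. The start-site windows carry GRCm38.p6 coordinates. The named genes were the 6 members, other genes of the lists with a probe, and for each member the 2 genes with the highest Pearson correlation. Members and lists were chosen with earlier results of these data known. Plots used matplotlib 3.10.9 (Python 3.11.15).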

Additional observations from a re-analysis of the deposited data

Results flagged for a closer look

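After quantile normalization the log2 signal of Psme3 was 7.17 in wild-type replicate 6, and the other 5 arrays of that group lay between 9.92 and 11.10. A gap of this size relative to the range is expected by chance in about 1 in 20 groups of 6, and 1 of the 12 groups of member values showed one. On wild-type replicate 6 the signal-over-noise score of Psme3 was -0.71, so the value is at the noise floor.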

How the results depend on the processing

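No paired analysis was possible because the labels give no replicate numbers shared between the groups. A block on slide or scan was not run, since the headers show 1 scan date and no slide. Unkl was tested through its knockout signals alone, so its calls under the alternatives are not read as stability. Scaled to hybridization controls, Wwp1 was -0.28 and Trim59 -0.067, both no longer called, and Rnf112 was 0.67. With in vitro transcription controls Wwp1 was 0.084, Trim59 0.30, Rnf112 1.03 and Psme3 1.66, the last now called. In the authors' deposited table Wwp1 was -0.23 and Trim59 -0.047, no longer called, Rnf112 was 0.72, and Psme3 was 1.33 and now called. The scanner software's signal left Trim59 at -0.78 and Rnf112 at -0.19, not called. Psme3 was -0.24 with median centring, -0.14 with cyclic loess and -0.21 with quantile normalization of the tested probes alone. Without a filter on dim probes Ube3a (1.29) and Rnf112 (-0.81) kept their estimates and lost their calls, since 33011 probes were then tested. Scaling to control spots and the deposited table keep the difference in brightness of the tested probes between the groups. Otherwise the cause was not tested.

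Leaving out each array in turn gave 1.06 to 1.58 for Ube3a, -0.28 to 0.53 for Psme3, -1.87 to -1.52 for Wwp1, -1.80 to -1.43 for Trim59, -0.98 to -0.68 for Rnf112 and 2.16 to 2.75 for Unkl. Those of Wwp1, Trim59 and Rnf112 passed the threshold in all 12, as a description of members chosen on these arrays. Rnf112 passed it only narrowly without knockout replicate 3 or 5. Over all probes 3066 were called, 2794 to 3199 with an array left out, and 1906 of the 2979 probes above background on all 12 arrays, where fewer probes were tested. The split was 1705 higher and 1361 lower, against 1393 and 1796 with median centring, 1421 and 1742 with quantile normalization of the tested probes alone, and 703 and 1203 with the strictest filter. Hybridization controls gave 3591 and 135, in vitro transcription controls 4204 and 62, the scanner software's signal 2080 and 511, and the deposited values 3842 and 146. Quantile normalization of the log2 signals, chosen after seeing the data, called 3077 probes and changed no member's call. Unkl on wild-type arrays is limited by signal over background.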

Other observations

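Rnf112 showed opposite spreads before and after scaling in the 2 groups. As deposited, its log2 signal had an SD of 0.19 over the 6 knockout arrays and 0.53 over the 6 wild-type arrays. After quantile normalization the SD was 0.54 in the knockout and 0.24 in the wild type. For Trim59 it went from 0.87 to 0.52 in the knockout and from 0.41 to 0.55 in the wild type. For Ube3a, Unkl and Psme3 the knockout SD fell with normalization, from 1.22 to 0.82, from 1.35 to 0.96 and from 1.13 to 0.79.

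Within the knockout group, replicate 2 had the lowest deposited signal for Ube3a (1390), Unkl (640) and Psme3 (435) and the highest for Rnf112 (5171). Replicate 5, the array with the most probes above background (9598), had the highest for Ube3a (18040), Unkl (6636) and Trim59 (7310).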
